A study of Mus musculus with 4 samples.

Results

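The IFIT family, Rsad2 and Cmpk2 are 6 genes (Ifit1, Ifit2, Ifit3, Ifit3b, Rsad2 and Cmpk2) of the 32285 genes counted in bone marrow cells of myeloma-bearing mice. They were taken by symbol, and were chosen by their higher UMI counts under Purinostat Mesylate (PM) than under vehicle in these same mice, so for them that contrast is a description and no p-value is given for it. PM is an inhibitor of class I and IIb histone deacetylases (HDACs). Each mouse was a C57BL/KawRij animal that received 5TGM1 myeloma cells carrying luciferase by vein at 6 weeks of age and was treated 3 weeks later. Total marrow, after lysis of erythrocytes, was collected 24 h after vehicle (2 mice) or 10 mg/kg PM (2 mice), and each mouse gave 1 droplet single-cell RNA-seq library. All 4 mice carried the tumor, and no mouse without myeloma was compared.

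These genes are classical targets of type I interferon. Interferon binds its receptor, and a complex that contains Irf9 then binds a DNA motif called the interferon-stimulated response element (ISRE). IFIT proteins bind foreign RNA and the translation machinery. Rsad2 encodes viperin, an enzyme that turns CTP into a chain terminator of viral RNA synthesis, and Cmpk2 encodes a mitochondrial nucleotide kinase that supplies CTP.

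The 4 IFIT members lie on chromosome 19 within 99316 bases, in the order Ifit2, Ifit3, Ifit3b and Ifit1, all on the plus strand. In GRCm38, Ifit2 (ENSMUSG00000045932) spans chr19:34550694-34576419, and Ifit3 (ENSMUSG00000074896) spans chr19:34583531-34588731. Ifit3b (ENSMUSG00000062488) spans chr19:34607970-34613401, and Ifit1 (ENSMUSG00000034459) spans chr19:34640871-34650009. Rsad2 (ENSMUSG00000020641) at chr12:26442746-26456452, minus strand, and Cmpk2 (ENSMUSG00000020638) at chr12:26469204-26479837, plus strand, point away from each other with 12751 bases between them.

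The promoter windows of RefSeq (GRCm38.p6, 250 bases before to 50 after the start) were searched on both strands for the core of an ISRE, which is GAAA, any 2 bases and GAAA, or TTTC, any 2 bases and TTTC when read on the other strand. All 6 members had a window, and 4 of the 6 held a match, against 3.99% of the 27025 genes with a window. The stretches with a match are shown because they carry the element by which this family is known, with the matches in capitals and each gene's own strand read 5′ to 3′.
Ifit1, chr19:34640775-34640823, plus strand: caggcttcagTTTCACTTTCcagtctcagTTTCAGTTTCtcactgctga
Ifit3, chr19:34583363-34583426, plus strand: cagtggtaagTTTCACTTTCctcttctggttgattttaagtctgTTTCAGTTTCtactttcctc
Ifit3b, chr19:34607759-34607822, plus strand: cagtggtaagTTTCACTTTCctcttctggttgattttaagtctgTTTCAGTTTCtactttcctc
Rsad2, chr12:26456553-26456582, minus strand: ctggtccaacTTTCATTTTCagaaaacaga
Ifit1, Ifit3 and Ifit3b each held 2 matches and Rsad2 held 1. The 64 bases of Ifit3 and Ifit3b were identical, although their whole windows were 75.9% identical. No match was in the windows of Ifit2 and Cmpk2, which says only that these letters are not there. Of 60 other antiviral genes with a window, 28 held a match (46.7%), and of 6 genes neighbouring the loci none did. The longest coding transcripts of Ifit3 and Ifit3b were 81.2% identical, and how the counting split reads from the shared stretches was not tested. In the alignment of the whole transcripts, of 1745 bases for Ifit3 and 2000 for Ifit3b, 1663 bases were identical. The last 400 bases of each, at the end where this assay counts, were 46.0% identical when cut out and compared. The other pairs of IFIT genes compared had 45.5% to 49.9%. That cut does not set matching stretches side by side where transcripts end at different places, so it does not show that the ends of Ifit3 and Ifit3b differ.

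The libraries held 69828595 to 109447030 unique molecular identifiers (UMIs, the counted molecules), and 39743 cells were kept, 7826 to 13387 per mouse. Median UMIs per cell were 6067 and 5330.5 under vehicle against 4717 and 4805 under PM. Pairs of libraries shared 18 to 41 cell barcodes. Clusters were made without the interferon genes and named by marker genes, which gave 17 classes that each held 10 cells or more in every mouse. The class named eosinophil/basophil prog was led by the basophil genes Prss34 and Mcpt8, and its eosinophil markers Epx, Prg2 and Prg3 were at 0 to 5.78 CPM (UMI counts scaled to a common total for each class and mouse).

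In the whole marrow, the 6 genes together made up 121.2 and 97.96 CPM in the vehicle mice and 208.9 and 217.5 CPM in the PM mice. At least 1 UMI of a member was found in 41.49% and 35.41% of cells under vehicle against 51.98% and 50.64% under PM. Both PM mice were above both vehicle mice on each measure. Rsad2 was at 30.44 and 21.95 CPM under vehicle and at 76.86 and 85.47 CPM under PM. Cmpk2, at 63.77 and 56.93 CPM under vehicle, reached 83.27 and 89.77 CPM under PM. Ifit2 moved by less than Rsad2, with 8.587 and 8.86 CPM under vehicle and 12.36 and 12.84 CPM under PM. None of the 6 genes overlapped between the groups in the whole marrow. The share of all genes without overlap was not measured and the members were chosen by this contrast, so nothing is read from that count.

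The members were not evenly spread over the marrow. The summed level in vehicle mice was 324.1 and 207.8 CPM in mature neutrophil-like cells and 219.6 and 177.3 CPM in immature/mature neutrophil-like cells. In plasma-like cells it was 3.07 and 6.45 CPM. To compare classes, each class was tested against the mean of the others with edgeR's quasi-likelihood test with the mouse as a block and Benjamini-Hochberg adjustment over all genes. A call required an adjusted p under 0.05 and an absolute log2 difference over 0.5. The fit took the vehicle and PM mice together, so these differences are not levels under vehicle alone. The members were chosen by their higher counts in the PM mice. Of 102 pairs of a gene and a class, 32 were called higher and 35 lower, against 27.4% and 18.5% of such pairs over all genes.

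**Figure D1:**
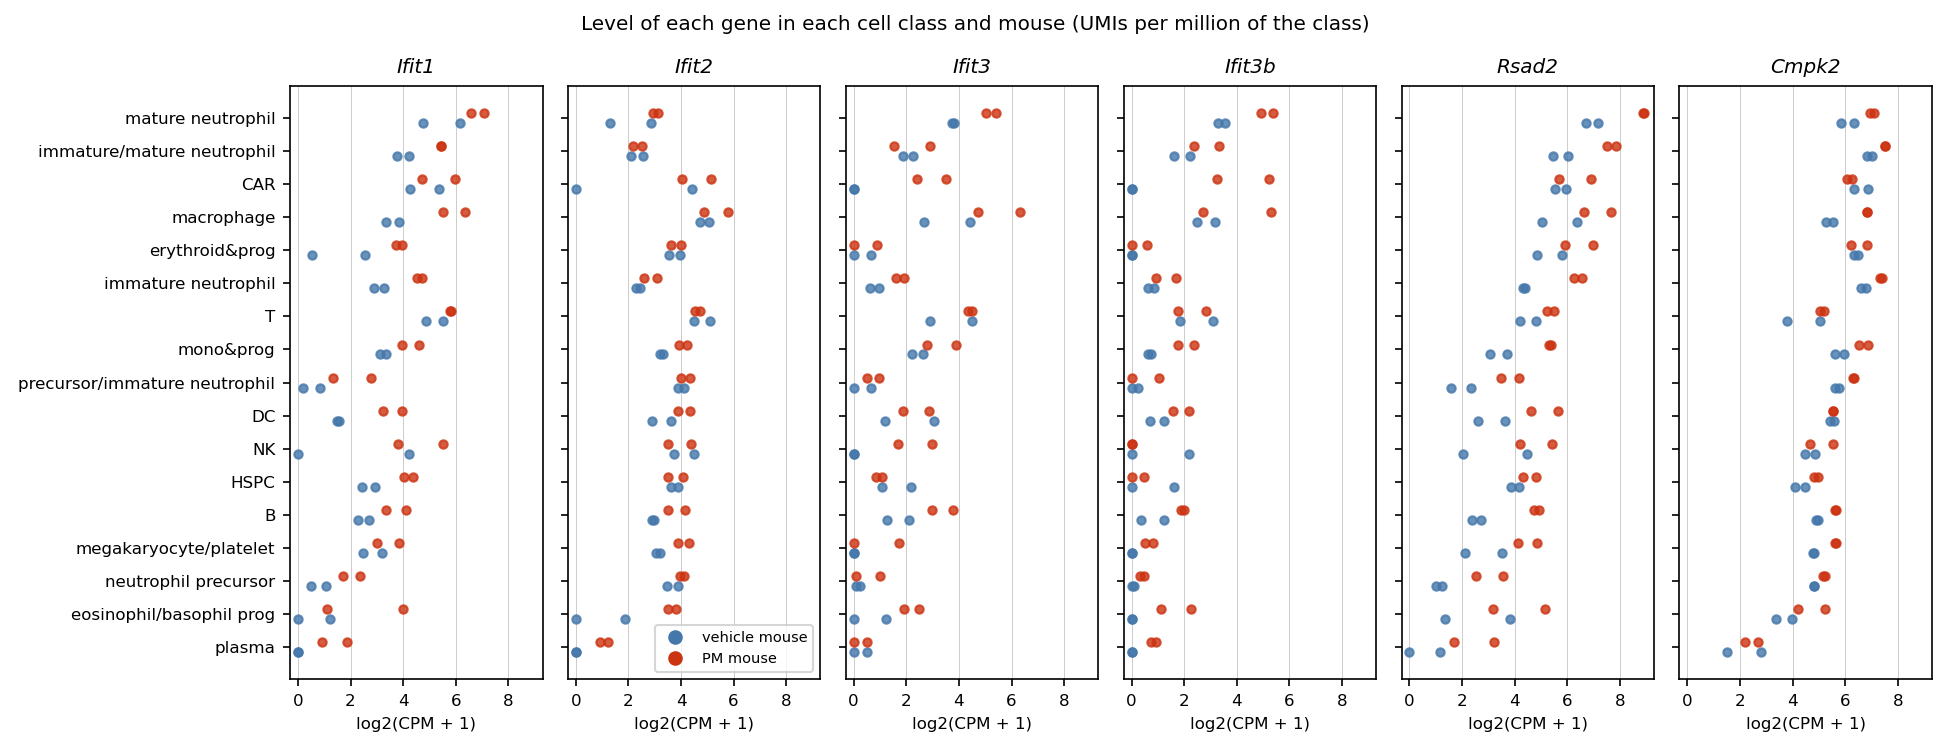
Level of each member in each of the 17 cell classes, as log2(CPM + 1), with 1 point per mouse (blue, vehicle; red, PM) and classes ordered by the summed level in vehicle mice. Rsad2 is highest in mature neutrophil-like cells of all 4 mice, and plasma-like cells are at or near the low end for every member.

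In mature neutrophil-like cells, 5 of the 6 members were called higher than in the other classes, where 31.2% of all genes were called higher. Rsad2 was higher by 4.68 ± 0.15 on the log2 scale (SE, edgeR quasi-likelihood test with Benjamini-Hochberg adjustment, adjusted p = 2.96e-33). Ifit3b, Ifit3 and Ifit1 were higher by 5.20, 4.52 and 4.12, and Cmpk2 by 2.14. Ifit2 differed by 0.14 and was not called. The scaling factors between libraries ranged from 0.49 to 0.58 in this class and from 1.26 to 1.38 in B-like cells, and therefore the scaling matters here. With library size alone, Rsad2 was higher by 3.66, Ifit3b by 4.18, Ifit3 by 3.50, Ifit1 by 3.11 and Cmpk2 by 1.13, while Ifit2 turned to -0.88 and was called lower.

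The order of the classes differed between members. Cmpk2 was highest in immature/mature neutrophil-like cells, at 119.6 ± 11.4 CPM in vehicle mice (SD, n = 2). Over the vehicle and PM mice together it was 2.65 ± 0.10 above the mean of the other classes on the log2 scale (SE). Of all genes, 26.8% were called higher in this class. Macrophage-like cells were called higher for all 6 members, where 19.5% of all genes were, with Ifit3 higher by 3.83 and Rsad2 by 2.04. Their place depended on the group, since for Cmpk2 they ranked 9 of 17 classes in vehicle mice (mean 41.58 CPM). Under PM they ranked 4 (mean 112.2 CPM). Neutrophil markers gave 29.5 and 48.9 per mille of the UMIs of this class under vehicle against 54.2 and 57.3 per mille under PM, and 61.3 to 72.1 per mille in mature neutrophil-like cells. Their part in the member levels and shares of macrophage-like cells was not tested. The call of Cmpk2 there, a log2 difference of 0.66, was lost without PM mouse 1 (0.52) or without PM mouse 2 (0.51). T-like cells were higher in the IFIT genes, with Ifit3 at 2.67, Ifit1 at 1.90 and Ifit2 at 1.03, and lower in Cmpk2 at -1.07, where 27.5% of all genes were called higher and 15.9% lower. Erythroid&prog-like cells went the other way from T-like cells for Cmpk2, higher by 1.02, and for Ifit3 at -3.12, on 0 to 4 UMIs per mouse. That call of Ifit3 was lost without PM mouse 1 (-3.81). Rsad2 was higher by 1.47 in erythroid&prog-like cells, while in T-like cells it was at -0.13 and not called. Ifit1 (-0.54) and Ifit2 (0.39) were not called in erythroid&prog-like cells. Of all genes, 37.7% were called higher there and 25.8% lower. Plasma-like cells were called lower for all 6 members, where 22.2% of all genes were called lower. The call of Ifit3b in plasma-like cells (-1.70) was lost when any 1 mouse was left out, with values from -2.09 to -1.34, and that of Ifit3 (-3.25) without PM mouse 1 (-2.89). Many neighbours in the order could not be told apart, since the ranges of the vehicle mice overlapped between 8 of 16 neighbouring classes for Cmpk2 and 14 of 16 for Ifit3b.

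Under PM, the members were higher across much of the marrow. Of the 102 pairs of a gene and a class, 67 had both PM mice above both vehicle mice and 1 had both below. The share of pairs over all genes that stood apart in this way was not measured. A low-count filter was passed by 68 pairs, of which 22 were called higher and 0 lower at the thresholds above, and of all pairs of a gene and a class tested 1.32% were called higher and 0.594% lower. Without PM mouse 1, 7 pairs of a member and a class were called higher. The filter and the choice of the genes both used this contrast, so these counts describe the members and nothing is read from them. The median of all genes lay within 0.02 of 0 on the log2 scale in each class.

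**Figure D2:**
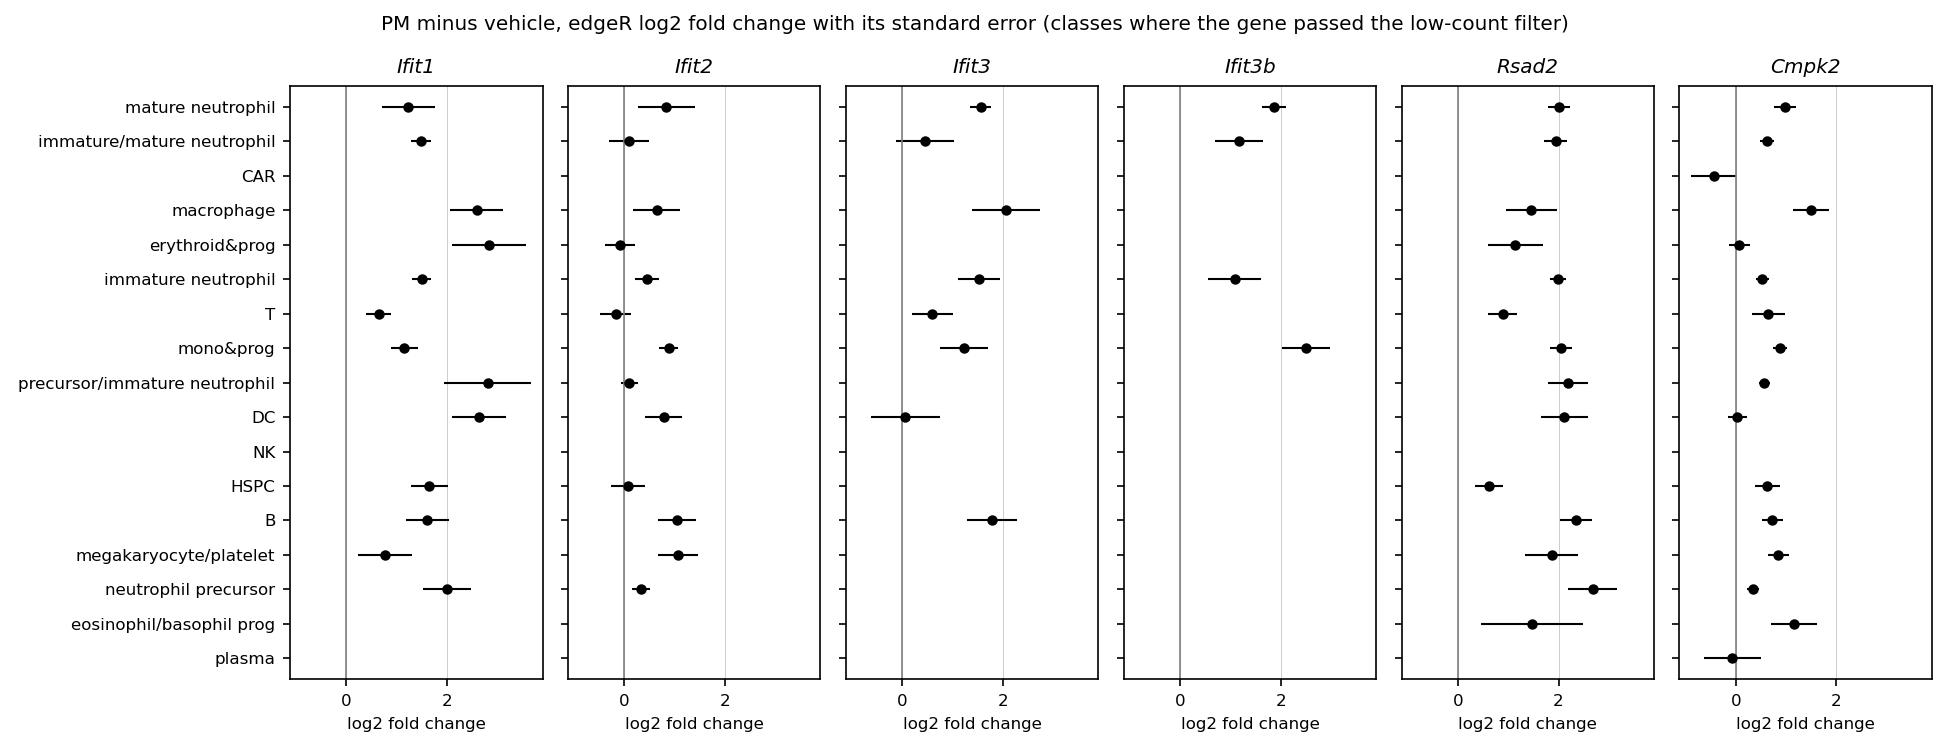
Log2 fold change of each member between PM and vehicle in each class where it passed the low-count filter, from edgeR, with bars of 1 standard error (2 mice per group). Rsad2 lies right of 0 in all 14 classes shown, and Cmpk2 lies nearer to 0 with its lowest value in CAR-like cells.

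Rsad2 had a positive log2 fold change in all 14 classes in which it passed the filter. In mature neutrophil-like cells it was at 143.3 and 103.3 CPM in the vehicle mice and at 485.5 and 474.6 CPM in the PM mice, a log2 fold change of 2.01 ± 0.22 (SE). Immature neutrophil-like cells had 19.86 and 19.11 CPM under vehicle and 94.29 and 75.10 CPM under PM, a log2 fold change of 1.99 ± 0.15. The groups stood well apart in both classes. In mono&prog-like cells, the monocytes and their progenitors, Rsad2 was at 7.32 and 11.96 CPM under vehicle and at 40.87 and 38.75 CPM under PM (2.04 ± 0.22). B-like cells had 4.13 and 5.65 CPM under vehicle and 29.01 and 25.47 CPM under PM (2.34 ± 0.32). Across the 14 classes in which Rsad2 passed the filter, its log2 fold change ran from 0.61 in HSPC-like cells to 2.68 in neutrophil precursor-like cells, with a median of 1.97.

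Cmpk2, the neighbour of Rsad2, changed less. In immature neutrophil-like cells it was at 110.1 and 96.65 CPM under vehicle and at 167.2 and 160.1 CPM under PM, a log2 fold change of 0.53 ± 0.13. Mature neutrophil-like cells had 79.45 and 55.95 CPM under vehicle and 136.2 and 122.8 CPM under PM (0.98 ± 0.22). Both classes had every PM mouse above every vehicle mouse, and the median over 16 classes was 0.63. In CAR-like cells, the stromal cells led by Cxcl12, Cmpk2 was at 117.0 and 80.58 CPM under vehicle and at 66.82 and 76.41 CPM under PM. This rests on 8 to 18 UMIs per mouse. The log2 fold change was -0.44 ± 0.45, with an SE as large as the change, so a direction cannot be read from it. Neutrophil markers gave 70.4 and 45.6 per mille of the UMIs of CAR-like cells under vehicle and 58.8 and 73.5 per mille under PM. In mature neutrophil-like cells they gave 61.3 to 72.1 per mille. The part of neutrophil RNA in the Cmpk2 level of CAR-like cells was not tested. DC-like cells had 41.74 and 46.53 CPM under vehicle and 45.51 and 45.23 CPM under PM, and those groups overlapped.

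Among the IFIT members, Ifit1 was higher in both PM mice in 13 classes. In mature neutrophil-like cells it was at 71.30 and 25.91 CPM under vehicle and at 132.8 and 94.61 CPM under PM, and the vehicle mice differed from each other more than the PM mice did (log2 fold change 1.23 ± 0.53). In immature neutrophil-like cells, with 8.71 and 6.42 CPM under vehicle and 25.36 and 21.89 CPM under PM, the fold change was 1.5 ± 0.19. Ifit3 and Ifit3b moved alike in mature neutrophil-like cells. Ifit3 was at 13.10 and 12.41 CPM under vehicle and at 41.33 and 31.43 CPM under PM (1.56 ± 0.21). Ifit3b was at 10.73 and 8.82 CPM under vehicle and at 40.29 and 29.04 CPM under PM (1.86 ± 0.24). Ifit2 had the smallest median, 0.45 over 13 classes, and in mono&prog-like cells it had 8.87 and 8.25 CPM under vehicle and 17.58 and 14.33 CPM under PM (0.88 ± 0.18). In T-like cells Ifit2 was at 33.40 and 21.62 CPM under vehicle and at 22.37 and 25.07 CPM under PM, and the groups overlapped.

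These differences altered the makeup of the member UMIs. In mature neutrophil-like cells, Rsad2 gave 45.7% of them under vehicle and 59.8% under PM, and Cmpk2 gave 25.2% and 16.2%. In immature neutrophil-like cells, Cmpk2 fell from 76.0% to 57.7% of the member UMIs, and the share of Rsad2 went from 14.2% to 30.3%.

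A sum over cells does not tell more positive cells from more RNA per positive cell, so both were measured. Each cell was thinned to 1000 UMIs for the shares, because the mature neutrophil-like cells of the PM mice were shallower (medians of 2343 and 2707 UMIs against 3429 and 2926). The share of cells with a member UMI was 17.31% and 12.82% under vehicle against 35.18% and 33.23% under PM in mature neutrophil-like cells. Without thinning it was 32.63% and 23.52% against 51.54% and 50.41%. The level in positive cells, in UMIs per 10000 UMIs of the cell, was 9.87 ± 1.00 under vehicle and 17.72 ± 0.68 under PM (SD, n = 2). This level was not thinned, and in a shallower cell 1 UMI counts for more of it. In the cells thinned to 1000 UMIs, chosen as a measure after seeing the data, a positive cell held 1.99 and 1.72 member UMIs under vehicle against 2.55 and 2.55 under PM. The log2 ratio between the groups was 0.46 there, against 0.84 for the unthinned level.

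**Figure D3:**
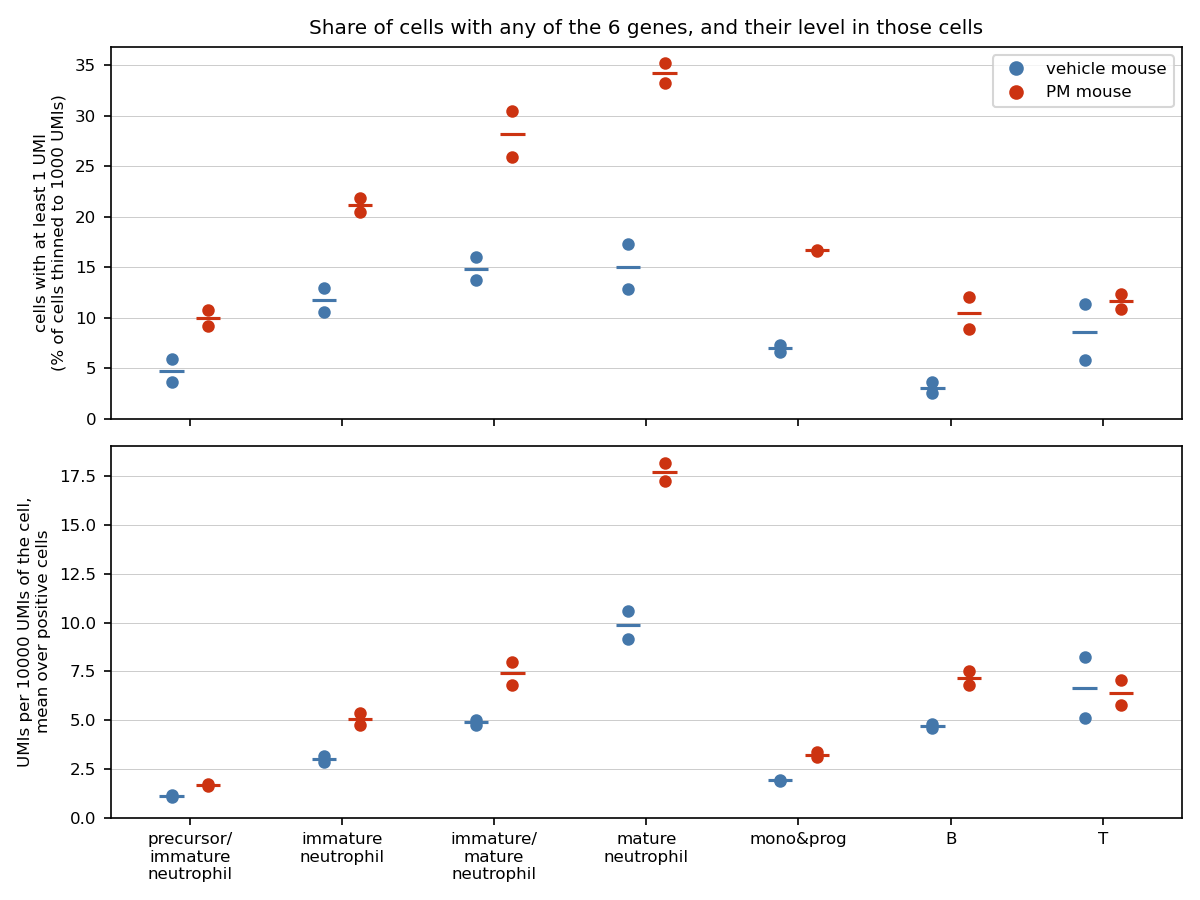
Share of cells with a member UMI after thinning to 1000 UMIs, and unthinned member UMIs per 10000 UMIs in positive cells, with 1 point per mouse and class. In mature neutrophil-like cells both PM mice lie above both vehicle mice on each measure, and T-like cells overlap on the level.

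In mono&prog-like cells, the thinned share was 6.97 ± 0.44% under vehicle and 16.69 ± 0.06% under PM, with unthinned levels of 1.93 ± 0.03 and 3.22 ± 0.18. B-like cells had 3.09 ± 0.76% and 10.46 ± 2.27% positive cells, with unthinned levels of 4.68 ± 0.15 and 7.15 ± 0.51. In immature neutrophil-like cells the share was 11.75 ± 1.65% and 21.17 ± 0.99%, and the unthinned level 2.998 ± 0.241 and 5.05 ± 0.44. In the thinned cells of these 3 classes a positive cell held 1.21 to 1.33 member UMIs under vehicle and 1.37 to 1.44 under PM, too near to 1 UMI for a change of level to be read. T-like cells had shares of 8.62 ± 3.92% and 11.62 ± 0.98% and levels of 6.66 ± 2.19 and 6.41 ± 0.90, which overlapped between the groups. Macrophage-like cells had a median of 883 to 1338 UMIs, and the 56 to 106 cells per mouse deep enough for thinning gave shares of 7.14% and 9.21% under vehicle and 33.02% and 29.73% under PM. Free RNA in the droplets can give a UMI to a cell that does not express a gene. In plasma-like cells, the class with the lowest levels, the thinned share was 0% in both vehicle mice, 3.35% in PM mouse 1 and 0% in PM mouse 2, and 3.18% to 20.32% without thinning at medians of 18885 to 24728 UMIs. The 0 of 61 and 0 of 94 thinned cells of the vehicle mice allow shares of up to 4.92% and 3.19% at 3 counts, and the 0 of 83 of PM mouse 2 up to 3.61%. These limits and those for CPM cover counting error only.

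For Rsad2 alone in mature neutrophil-like cells, the thinned share was 8.84 ± 1.40% under vehicle and 26.59 ± 0.83% under PM. The unthinned level in positive cells was 8.04 ± 0.22 under vehicle and 13.34 ± 0.07 under PM. The limit of depth given above holds here too, and no thinned level was measured for Rsad2 alone. The share of neutrophil marker UMIs in this class was 67.7 and 61.3 per mille in the vehicle mice and 72.1 and 66.8 per mille in the PM mice. Stress genes that respond to handling gave 8.61 and 11.7 per mille under vehicle and 8.56 and 13.1 per mille under PM. Both measures overlapped between the groups.

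Of mature neutrophil-like cells, 67.4% and 76.5% under vehicle against 48.5% and 49.6% under PM had none of the 6, and 20.2% and 16.4% against 29.5% and 29.9% had 1. In the thinned cells, 2 or more members were found in 4.23% and 2.98% under vehicle against 11.1% and 8.75% under PM. Without thinning, at least 4 members were found in 46 and 18 cells under vehicle (1.77% and 1.02%) against 102 and 62 cells under PM (3.97% and 2.99%). The 10% of cells with the highest member level held 69.8% and 74.2% of the member UMIs under vehicle and 55.1% and 56.9% under PM. The UMIs were thus spread over more cells in the PM mice. One cell of vehicle mouse 1 held 158 member UMIs, the highest of the class.

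**Figure D4:**
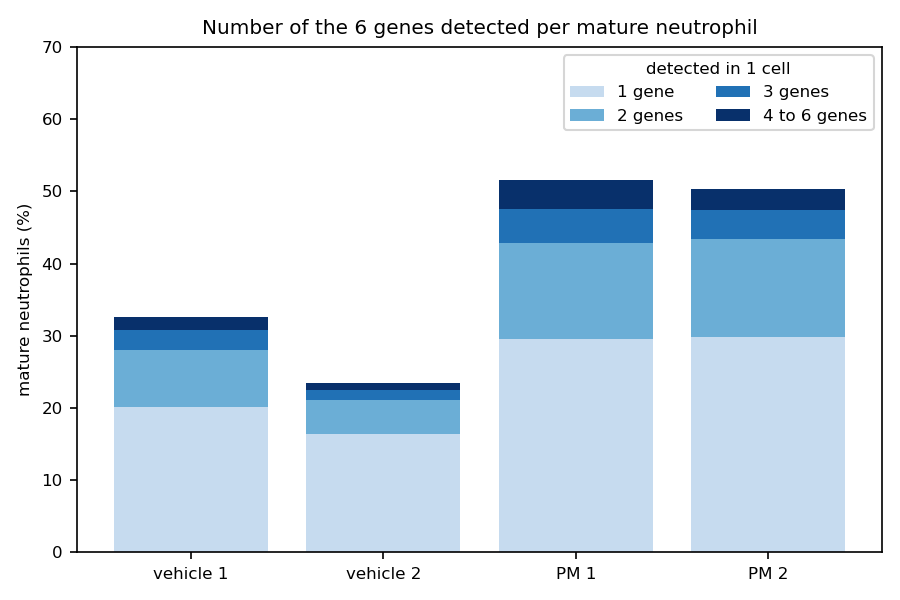
Percentage of mature neutrophil-like cells with 1, 2, 3 or at least 4 of the 6 members detected, stacked per mouse, without thinning. The bars of both PM mice are taller, and the part with at least 4 members is 1.77% and 1.02% under vehicle against 3.97% and 2.99% under PM.

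In mature neutrophil-like cells, the pairs compared shared cells more than the product of their shares gives, in these sparse counts. Ifit3 and Ifit3b were found in the same cell 12.3 and 16.3 times as often as that product in the vehicle mice and 6.89 and 9.20 times in the PM mice. Rsad2 and Cmpk2 were together 2.30 and 3.03 times as often under vehicle and 1.70 and 1.71 times under PM. The largest value this ratio can take falls as more cells are positive, so it is not compared between groups. Of cells with the rarer gene of Rsad2 and Cmpk2, 45.5% and 44.1% had both under vehicle and 71.4% and 69.7% under PM. For Ifit3 and Ifit3b it was 35.6% and 35.9% under vehicle and 46.4% and 44.3% under PM. This percentage rises when the more common gene is found in more cells, even if the genes are unrelated. It is therefore not compared between groups either. The excess over the product did not hold for every pair in mono&prog-like cells. There Rsad2 and Cmpk2 were at 1.49 and 1.21 times under vehicle and 1.16 and 0.985 times under PM. Ifit3 and Cmpk2 were at 1.74 and 0.875 times under vehicle and 1.11 and 1.09 times under PM. Deep cells detect any pair more often, and the part of depth in these ratios was not tested.

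Mature neutrophil-like cells formed 3 clusters. The one led by Il1b and Ptgs2, an inflammatory cytokine and the enzyme of prostaglandin synthesis, had 235 and 438 cells under vehicle against 185 and 149 under PM. Rsad2 there was at 473.3 and 128.0 CPM under vehicle and at 1031 and 1051 CPM under PM. The other clusters were lower, with 141.3 and 106.7 against 640.1 and 588.2 CPM in one and 102.7 and 89.57 against 360.4 and 317.7 CPM in the other. All 3 clusters had both PM mice above both vehicle mice. At a finer clustering resolution of 1.5 the class fell into 5 clusters that differed between mice. A pair of them held 1105 and 290 cells under vehicle against 31 and 112 under PM, and 840 and 270 against 15 and 47. Another pair held 276 and 454 under vehicle against 1352 and 917 under PM, and 139 and 315 against 998 and 845. Vehicle mouse 1 therefore gave most of the cells of the first pair, and the part of this makeup in the class values was not tested. A small mono&prog-like cluster led by Ace had 4.43 and 10.64 CPM of Rsad2 under vehicle and 227.2 and 116.9 CPM under PM, on 1 and 2 against 16 and 15 UMIs. The B-like cluster led by Ighd had 117 and 270 cells under vehicle against 928 and 414 under PM. That led by Ms4a1 had 41 and 216 against 321 and 197, and that led by Vpreb1 84 and 495 against 175 and 125. In the last, Cmpk2 was at 48.73 and 24.56 CPM under vehicle and at 39.97 and 29.07 CPM under PM, which overlapped. Rsad2 was higher in both PM mice in each of these B-like clusters. The part of this makeup in the B-like values was not tested.

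**Figure D5:**
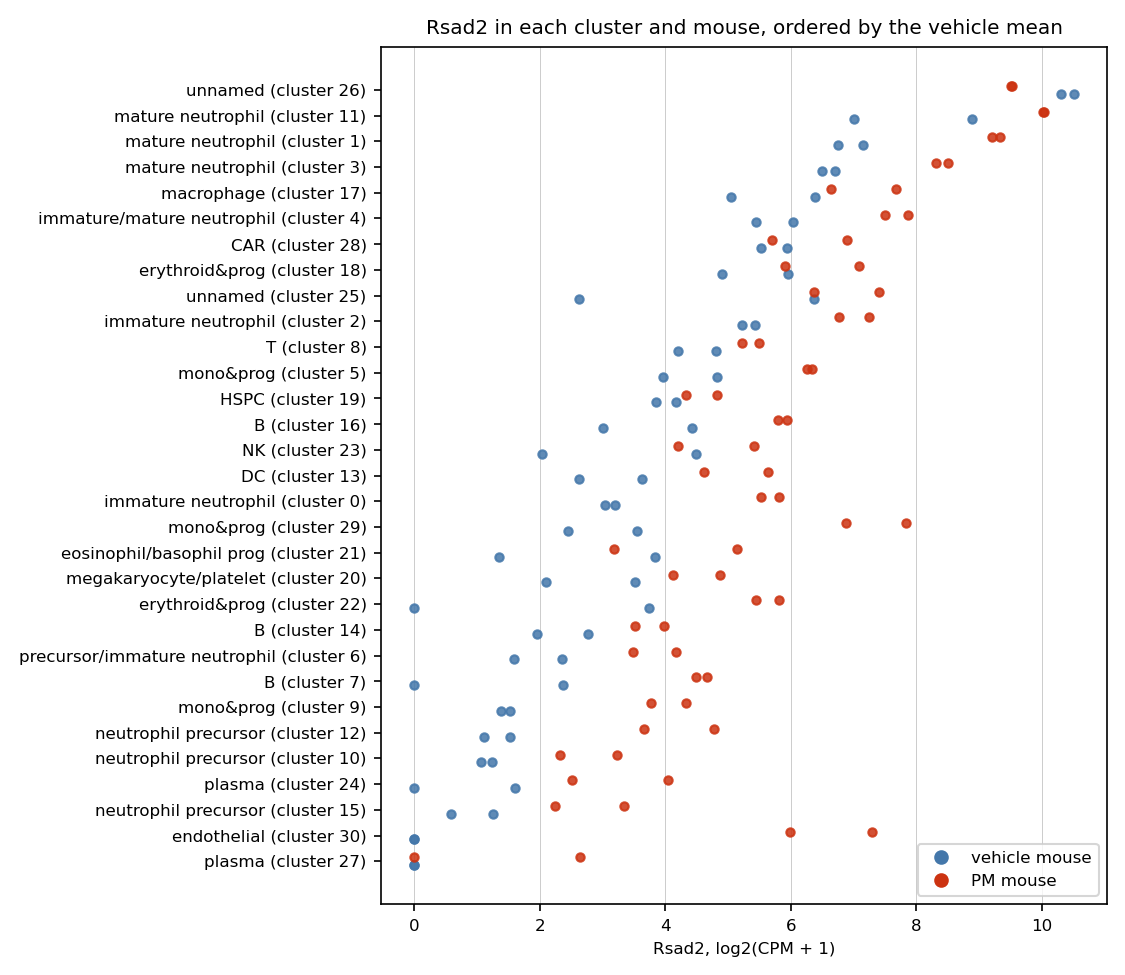
Rsad2 as log2(CPM + 1) in each of the 31 clusters, named and unnamed, ordered by the vehicle mean, with 1 point per mouse. The hemoglobin-led cluster is the one where both vehicle mice (1457 and 1261 CPM) lie above both PM mice (729.8 and 735.5 CPM).

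In an unnamed cluster led by hemoglobin genes, Rsad2 went the other way. Its 25 and 28 cells in the vehicle mice had 1457 and 1261 CPM of Rsad2, and its 57 and 69 cells in the PM mice had 729.8 and 735.5 CPM. The other members did not follow Rsad2, since Ifit1 was at 15.75 and 26.63 CPM under vehicle and at 80.68 and 49.86 CPM under PM. Hemoglobin took 29.1% and 32.6% of the UMIs under vehicle against 18.9% and 14.9% under PM. Neutrophil markers gave 56.3 and 32.9 per mille under vehicle and 82.1 and 90.6 per mille under PM, and the part of this mixture in the Rsad2 level was not tested.

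Plasma-like cells, the class into which myeloma cells fall by their markers, formed clusters that differed in their leading light chain. In the cluster where 98.1% of cells with a light chain V gene were led by Igkv10-96, 0 of 1880385 UMIs in 48 cells of the vehicle mice belonged to a member, which allows up to 1.60 CPM at 3 counts. In the PM mice it was 45 of 4440427 UMIs, or 10.1 CPM, in 24 of 123 cells. PM mouse 1 gave 42 of the 45 UMIs and PM mouse 2 gave 3. In all plasma-like cells, 21.4% of those of PM mouse 1 were called doublets and 5.52 per mille of their UMIs were neutrophil markers, against 8.42% to 12.7% and 1.40 to 2.99 per mille in the other mice. Their part in the member UMIs was not tested. The share of doublets called over all cells was set by the number of cells, at 10.71% in PM mouse 1 and 6.26% to 7.41% in the other mice. The other plasma-like cluster, with 5.80% such cells, had 9.64 CPM under vehicle and 24.8 CPM under PM when the mice of a group were pooled. By mouse it had 5.09 and 13.75 CPM under vehicle and 32.51 and 15.06 CPM under PM. These rest on 5 and 15 against 44 and 16 UMIs, and PM mouse 2 was near vehicle mouse 2.

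Of the interferons themselves, Ifnb1 had 1 UMI over the 4 libraries, and the 13 Ifna genes in the list had 0, which at this depth does not show that they were absent. Ifng had 115 and 58 UMIs under vehicle against 108 and 114 under PM, most of them in T-like cells. These cells numbered 209 and 208 under vehicle and 718 and 471 under PM. At the finer resolution of 1.5, a T-like cluster led by Cxcr6 held 160 and 130 cells under vehicle against 279 and 218 under PM. Another, led by Cd8b1, held 55 and 82 cells under vehicle and was the larger one in both PM mice. The part of this makeup in the Ifng, member and antiviral gene values of T-like cells was not tested. Ifng in T-like cells was at 88.64 and 42.15 CPM under vehicle and at 23.72 and 41.62 CPM under PM (log2 fold change -0.987 ± 0.405). NK-like cells had 129.2 and 56.82 CPM against 65.22 and 83.40 CPM, which overlapped. Of these 2 classes, edgeR called 0, and 1 was lower at an unadjusted p under 0.05. The receptor genes Ifnar1 and Ifnar2 were called in 0 of 16 and 0 of 17 classes by edgeR and in 0 by DESeq2, with 0 classes at an unadjusted p under 0.05 and median log2 fold changes of 0.03 and -0.09.

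The other genes of the pathway were not used to choose the members and were tested with the same edgeR quasi-likelihood test. Their lists were, however, drawn up with earlier results of these data known, so the counts below are not an independent test. Of 145 genes of the interferon lists in the files, 35 of 101 tested were called higher in immature neutrophil-like cells, 31 of 95 in precursor/immature neutrophil-like cells and 23 of 108 in B-like cells, where 5.31%, 2.61% and 2.98% of all genes tested were called higher. In mono&prog-like cells 14 of 120 were called higher and 2 lower, and in mature neutrophil-like cells 11 of 102 were called higher and 1 lower, where 1.38% and 3.65% of all genes were called higher. Of all genes, 3.13% were called higher in immature/mature neutrophil-like cells, 0.528% in neutrophil precursor-like, 0.408% in DC-like, 0.153% in HSPC-like, 0.0861% in eosinophil/basophil prog-like, 0.0738% in T-like, 0.042% in plasma-like, 0.0397% in erythroid&prog-like and 0.00993% in megakaryocyte/platelet-like cells, and 0.0% in macrophage-like, CAR-like and NK-like cells. The count of mature neutrophil-like cells was 44 without vehicle mouse 1, 2 without PM mouse 1 and 3 without PM mouse 2. That of mono&prog-like cells was 47 without vehicle mouse 1, 24 without vehicle mouse 2, 4 without PM mouse 1 and 24 without PM mouse 2, and 22 with a replicate block. That of B-like cells was 38 without vehicle mouse 1, 12 without vehicle mouse 2 and 5 without PM mouse 1. For immature neutrophil-like cells it was 22 without vehicle mouse 2, and for precursor/immature neutrophil-like cells 7 without PM mouse 1.

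Of 72 antiviral target genes in the files, 69 were tested in some class and 41 were called higher in at least 1, with none called lower. The share of all genes called higher in at least 1 class was not measured. Called higher were 22 of 61 in immature neutrophil-like cells, 20 of 55 in precursor/immature neutrophil-like cells, 16 of 63 in B-like cells, 12 of 69 in mono&prog-like cells and 8 of 59 in mature neutrophil-like cells. The median log2 fold changes of the tested genes were 0.74, 0.68, 0.51, 0.38 and 0.41 in this order. Bst2, which tethers virus particles to the cell surface, Ddx60 and Rtp4 were called in 6 classes each. In T-like cells edgeR called 0 of 61, with 9 higher and 0 lower at an unadjusted p under 0.05 and 0 called by DESeq2, at a median of 0.09. Of the 9484 genes edgeR tested there, 525 were higher and 453 lower at that unadjusted p. In macrophage-like cells edgeR called 0 of 56, with 27 higher and 0 lower at an unadjusted p under 0.05 and 1 called by DESeq2, at a median of 0.72. Of the 5676 genes tested in that class, 199 were higher and 155 lower at that unadjusted p. The largest median of any class was 0.83, in erythroid&prog-like cells. There edgeR called 1 of 59 and DESeq2 called 5, with 37 higher and 1 lower at an unadjusted p under 0.05. Of the 10068 genes tested there, 566 were higher and 405 lower at that unadjusted p. The counts of calls therefore do not rank the classes by size of change.

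Among transducers and feedback genes, Usp18, which removes Isg15 from proteins and damps receptor signalling, was called higher in 7 of 13 classes. Mature neutrophil-like cells had 15.68 and 12.41 CPM under vehicle and 47.90 and 41.00 CPM under PM, a log2 fold change of 1.70 ± 0.21 (edgeR quasi-likelihood test with Benjamini-Hochberg adjustment, adjusted p = 0.00795), a call that was lost without PM mouse 1 (1.56). Irf7, a transcription factor of the interferon response, was called higher in 5 of 15 classes, and Isg15 in 4 of 14. Stat2, a signal transducer of the pathway, was called in 0 of 15 classes (3 at an unadjusted p under 0.05, 0 by DESeq2) and Irf9 in 2 of 17. The medians over classes were 1.51 for Usp18, 1.08 for Irf7 and 0.29 for Stat2.

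Of the antiviral genes, Slfn5, a member of the Schlafen family, rose in immature/mature neutrophil-like cells from 9.76 and 7.58 CPM to 73.00 and 72.90 CPM, a log2 fold change of 3.05 ± 0.19 (edgeR quasi-likelihood test with Benjamini-Hochberg adjustment, adjusted p = 3.31e-05). Ifi27l2a rose in precursor/immature neutrophil-like cells from 6.07 and 5.66 CPM to 38.03 and 36.14 CPM (2.59 ± 0.17). Rtp4 rose in immature neutrophil-like cells from 16.61 and 10.03 CPM to 53.82 and 52.80 CPM (1.85 ± 0.20). Socs3, a feedback inhibitor of cytokine signalling, was called lower in HSPC-like cells, from 42.49 and 20.64 CPM to 7.49 and 10.12 CPM (-1.83 ± 0.32), and that call was lost without vehicle mouse 1 (-1.25) or PM mouse 1 (-1.67).

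The other IFIT genes of the chromosome 19 locus are Ifit1bl1 and Ifit1bl2, which lie between the members on the minus strand. Ifit1bl1 rose in B-like cells from 2.75 and 2.68 CPM to 31.24 and 15.96 CPM, a log2 fold change of 3.15 ± 0.46 (edgeR quasi-likelihood test with Benjamini-Hochberg adjustment, adjusted p = 0.000441). Ifit1bl2 rose in immature neutrophil-like cells from 19.75 and 15.19 CPM to 54.91 and 50.39 CPM (1.45 ± 0.15). Genes of the neighbourhood outside the family, Lipa, Pank1 and Kif20b beside the IFIT genes and Rnf144a beside Rsad2, were called in 0 of the 15, 11, 15 and 17 classes in which edgeR tested each, and in 0 by DESeq2. At an unadjusted p under 0.05, Lipa was higher in 3 classes, Pank1 in 0, Kif20b higher in 1 and lower in 2, and Rnf144a higher in 1 and lower in 1.

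The genes whose level was most like that of the summed members were ranked by Pearson's r over 68 sums, 1 per mouse and class, among the 10411 genes whose mean reached 5 CPM. The sums of 1 class share cells of like type and those of 1 mouse share a library, so r is a description. Oas3, a sensor of double-stranded RNA, came first (r = 0.877), followed by Rtp4 (0.825), Ddx60 (0.824), Oasl2 (0.798), Svil (0.782), Klf3 (0.780), Atxn7l1 (0.774), Stx11 (0.771), Apbb1ip (0.769) and Irf9 (0.767). Among the members, Ifit1 and Rsad2 were most alike (r = 0.864) and Ifit2 and Ifit3b least (r = 0.252).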

How the data were processed

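Raw UMI counts per gene and cell, as the authors deposited them, came from Cell Ranger with STAR; the paper's methods name the GRCm38 reference and the submitters' notes list GRCm39. Members and gene lists were chosen with earlier results of these data known. Cells were kept from 300 genes upward and up to 20% mitochondrial UMIs (scanpy 1.11.5), and called doublets stayed in. Doublets were the cells with the highest doublet scores in each mouse, at 0.8% per 1000 cells of that mouse. Clusters (leidenalg 0.10.2, 30 components, 15 neighbors, resolution 1, interferon genes left out) were named by markers, which gave 31 clusters, and clusters without a clear name stayed unnamed. UMIs were summed per mouse and class and fitted with edgeR 4.0.16 (R 4.3.3; TMM, filterByExpr, robust quasi-likelihood, Benjamini-Hochberg adjustment), with a call at an adjusted p under 0.05 and an absolute log2 fold change over 0.5. The script was tested on simulated data. Named genes were the members, fixed pathway genes, and per class the 3 called interferon genes with the largest change, a mean of at least 20 CPM and 1 direction in all 4 pairs of mice. Only some of these are printed. With 2 mice per group an exact two-sided permutation test cannot go below p = 0.33, so none was run. Labels number the mice without saying how they were handled. The p-values of PM against vehicle measure the spread between mice. Those of a class against the others measure what is left between sums once the mouse block is removed. Alternatives were DESeq2 1.42.0, other scaling, filters, clusterings, blocks and each mouse left out. Endothelial-like cells, with 9 cells in 1 mouse, were left out.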

Additional observations from a re-analysis of the deposited data

Results flagged for a closer look

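In 2 places both vehicle mice lay above both PM mice for a member that was higher under PM in most classes, and the difference between places was not tested. Rsad2 in the hemoglobin-led cluster was lower under PM by a log2 ratio of -0.892 of the group means. Cmpk2 in CAR-like cells was lower by a log2 ratio of -0.464, on 8 to 18 UMIs per mouse. The edgeR log2 fold change there was -0.44 ± 0.45, with an SE as large as the change. Neutrophil markers gave 45.6 to 73.5 per mille of the UMIs of CAR-like cells, and their part in this was not tested.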

How the results depend on the processing

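No called value changed direction under the alternatives run. Interferon genes other than the members called higher over all 17 classes numbered 147, and 325 without the filter on low counts; those called lower numbered 4, 12 without the filter and 8 with a crossed replicate block, which was chosen after seeing the data. Members called numbered 22, and 35 without the filter. In single classes the counts called higher moved to 23 (mature neutrophil-like) and 32 (mono&prog-like) without the filter, and to 18 (precursor/immature neutrophil-like) and 9 (B-like) with DESeq2. With a replicate block, the count of mono&prog-like cells was 22 against 14 and that over all classes 216. Deviations of same-numbered mice correlated from -0.144 to 0.206 over the classes, so the numbers were not taken as pairs. With each mouse left out, the counts ranged from 88 to 273 higher and 3 to 38 lower over all classes, 7 to 31 for the members, 2 to 44 (mature neutrophil-like), 22 to 42 (immature), 7 to 38 (precursor/immature), 4 to 47 (mono&prog-like) and 5 to 38 (B-like). Pairs called higher or lower between classes ranged from 28 to 32 and from 25 to 34. Medians of the members ranged from 1.06 to 2.19, 0.93 to 1.62, 0.95 to 1.59, 0.84 to 1.57 and 1.07 to 1.94 in the same order of classes, and in precursor/immature neutrophil-like cells the median was 0.52 without called doublets. Log2 ratios of the share of positive cells ranged from 0.98 to 1.42, 0.71 to 1.00, 0.76 to 1.46, 1.20 to 1.33 and 1.52 to 2.03, and those of the level per positive cell from 0.74 to 0.95, 0.66 to 0.84, 0.55 to 0.68, 0.68 to 0.80 and 0.54 to 0.68. Without thinning the share ratios were 0.86, 0.31, 0.14, 0.53 and 0.99. With 2 UMIs required and no thinning they were 0.49 (immature), 0.18 (precursor/immature), 0.93 (mono&prog-like) and 1.19 (B-like). Thinning to 2000 UMIs gave 0.51 (precursor/immature) and 0.93 (mono&prog-like). The level ratio with 2 UMIs required was 0.65 (mature), 0.55 (mono&prog-like) and 0.76 (B-like), and 0.49 in B-like cells without called doublets. In cells thinned to 1000 UMIs, a measure added after seeing the data, it was 0.46, 0.17, 0.12, 0.16 and 0.11 in the same order of classes, where a positive cell cannot hold less than 1 UMI. The causes were not tested. In NK-like cells no member passed the filter on low counts, so no fold change is given there.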
